A study of Mus musculus with 48 samples.

Results

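The genes described here encode the translation initiation factor eIF2, its exchange factor eIF2B and the kinases that phosphorylate eIF2: the subunit genes *Eif2s1* and *Eif2s2*, the eIF2B genes *Eif2b1*, *Eif2b2*, *Eif2b3*, *Eif2b4* and *Eif2b5*, and the kinase genes *Eif2ak2*, *Eif2ak3* and *Eif2ak4*. They were chosen by symbol, mapped to the Ensembl identifiers of the deposited counts, and make 10 of the 50600 genes listed. All 10 passed the filter on low counts, which left 13889 genes for testing. Their mRNA was measured in mPDAC cells, 1 line of mouse pancreatic ductal adenocarcinoma cells labelled FVB/N x C57BL6 in background and 8-week-old in age. Non-treated (NT) cultures, numbered 1, 2 and 4, were set against cultures 1, 2 and 3 kept for 48 h with 50 µM N6L, a pseudopeptide that antagonises nucleolin. Every culture was incubated with emetine before lysis, nuclei and mitochondria were spun out, and polyA+ RNA was sequenced from an aliquot of the cytoplasm and from the pooled polysomal fractions of the same lysate. There were therefore 4 groups (NT cytoplasm, N6L cytoplasm, NT polysomes and N6L polysomes) of 3 libraries each, and no source says how far apart the cultures of a treatment were started, so the p-values measure the spread between these samples, which may be technical.

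As background, eIF2 is a trimer that carries the initiator methionyl-tRNA to the small ribosomal subunit as a complex with GTP. It leaves the ribosome bound to GDP, and eIF2B, a decamer built from pairs of its alpha to epsilon subunits, exchanges that GDP for GTP. The kinases PKR, PERK, GCN2 and HRI each answer another stress and phosphorylate the alpha subunit of eIF2, which turns eIF2 into an inhibitor of eIF2B, lowers initiation on most mRNAs and favours mRNAs with upstream reading frames such as that of *Atf4*. Phosphorylation and protein levels are not read by RNA sequencing, so the values below are on mRNA alone.

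The 12 libraries held 19519911 to 44972333 counts each over 4 technical replicates, which agreed almost within counting error, with chi-square values of 1.017 to 1.041 for each degree of freedom. The ductal label was checked on 7 epithelial markers. Of these, 6 were at 1 CPM (counts scaled to the library total) or more, from *Krt18* at 2690 to 4500 CPM down to *Sox9*, while *Epcam* stood at 0.0349 to 0.301 CPM. The summed ductal markers ran from 6430 to 10500 CPM. None of 6 fibroblast markers and none of 3 endothelial markers reached 1 CPM, of 5 haematopoietic markers only *Cd68* did, and of 5 acinar markers only *Cela1* did, with *Cpa1*, *Amy2a2* and *Ptf1a* at 0 counts. These and all levels below are CPM scaled by TMM, a library scaling by the trimmed mean of gene ratios. They are shares of the mRNA of a fraction, and the amount of mRNA per cell was not measured by the counts, so a lower share and a higher share of other mRNAs cannot be told apart. Differences are log2 values with their standard error (SE), and FDR stands for the Benjamini-Hochberg adjusted p of edgeR's quasi-likelihood test over all 13889 genes, with a limit of 0.05.

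The sequence before the start of 3 genes whose cytoplasmic mRNA changed under N6L is shown because it was read for letters that known promoter factors bind. These are the 250 bases before the RefSeq start (GRCm38.p6, all on the + strand) of *Eif2ak3* at chr6:70844265-70844514, of *Eif2ak4* at chr2:118388367-118388616 and of *Eif2b2* at chr12:85219231-85219480, none of which overlap an annotated exon. Capitals mark the CCAAT box, read as CCAAT or as its complement ATTGG.

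Eif2ak3: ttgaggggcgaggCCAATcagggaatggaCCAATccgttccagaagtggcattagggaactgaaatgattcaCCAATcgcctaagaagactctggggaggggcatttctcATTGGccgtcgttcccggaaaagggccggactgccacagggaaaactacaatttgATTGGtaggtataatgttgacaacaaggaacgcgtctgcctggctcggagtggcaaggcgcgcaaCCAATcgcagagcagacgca

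Eif2ak4: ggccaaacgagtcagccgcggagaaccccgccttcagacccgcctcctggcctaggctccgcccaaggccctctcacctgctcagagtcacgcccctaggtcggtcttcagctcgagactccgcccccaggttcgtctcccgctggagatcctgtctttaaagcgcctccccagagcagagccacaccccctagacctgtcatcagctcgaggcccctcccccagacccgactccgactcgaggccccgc

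Eif2b2: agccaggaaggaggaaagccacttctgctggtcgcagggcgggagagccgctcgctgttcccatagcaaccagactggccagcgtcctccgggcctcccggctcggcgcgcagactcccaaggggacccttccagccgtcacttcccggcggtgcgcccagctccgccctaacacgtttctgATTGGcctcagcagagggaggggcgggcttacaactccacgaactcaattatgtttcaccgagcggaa

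The window of *Eif2ak3* held 6 CCAAT boxes, that of *Eif2b2* held 1 and that of *Eif2ak4* held 0. Over 32817 RefSeq windows of the same length 33.8% held at least 1 CCAAT box, the median window held 0, and 19 windows (0.0579%) held 6 or more. RefSeq windows were found for 9 of the 10 genes, *Eif2b3* being the one without. Among the other windows, *Eif2b4* and *Eif2b5* held 1 CCAAT box each. *Eif2s1* held a match to the core of the interferon-stimulated response element (GAAA, any 2 bases and GAAA), which 2.97% of all windows hold, and to the NRF-1 core GCATGCGC, which 2.25% hold. The windows of *Eif2s1*, *Eif2s2*, *Eif2b1*, *Eif2b4* and *Eif2ak2* overlap exons in GENCODE and are not printed. No window of the 9 held the E-box CACGTG (6.02% of all windows) or the C/EBP-ATF letters TGATGNAA (3.45%), and the window of the interferon-inducible *Eif2ak2* held none of these motifs. All motifs were read on both strands. A match describes letters and is no evidence of a bound factor.

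In non-treated cytoplasm the 7 subunit mRNAs among the 10 genes stood above the 3 kinase mRNAs. Per kilobase of the longest coding transcript, *Eif2s2* was highest at 103 CPM per kb ± 13.9 (SD, n = 3). It was followed by *Eif2b5* at 65.2 ± 2.4, *Eif2b2* at 61.3 ± 3.64, *Eif2s1* at 61.1 ± 6.18 and *Eif2b1* at 54.2 ± 10.9, whose libraries overlapped from each to the next. *Eif2b4* at 23.1 ± 4.24 and *Eif2b3* at 14.5 ± 1.88 came next, each apart from its neighbours. The kinases were lowest, with *Eif2ak4* at 4.26 ± 0.955, *Eif2ak2* at 4.24 ± 0.76 and *Eif2ak3* at 2.86 ± 0.905 CPM per kb, and overlapped one another. Outside the 10 genes this order did not hold, since the eIF2 gamma gene *Eif2s3x* at 9.4 ± 0.452 and the kinase gene *Eif2ak1* at 8.75 ± 0.413 CPM per kb overlapped. The mRNAs of one eIF2B decamer thus ranged from 14.5 to 65.2 CPM per kb. The place of *Eif2s2* rested on the length taken: over the union of all its exons it fell to rank 5 at 38.6 CPM per kb, and *Eif2b5* came first at 64.2.

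**Figure D1:**
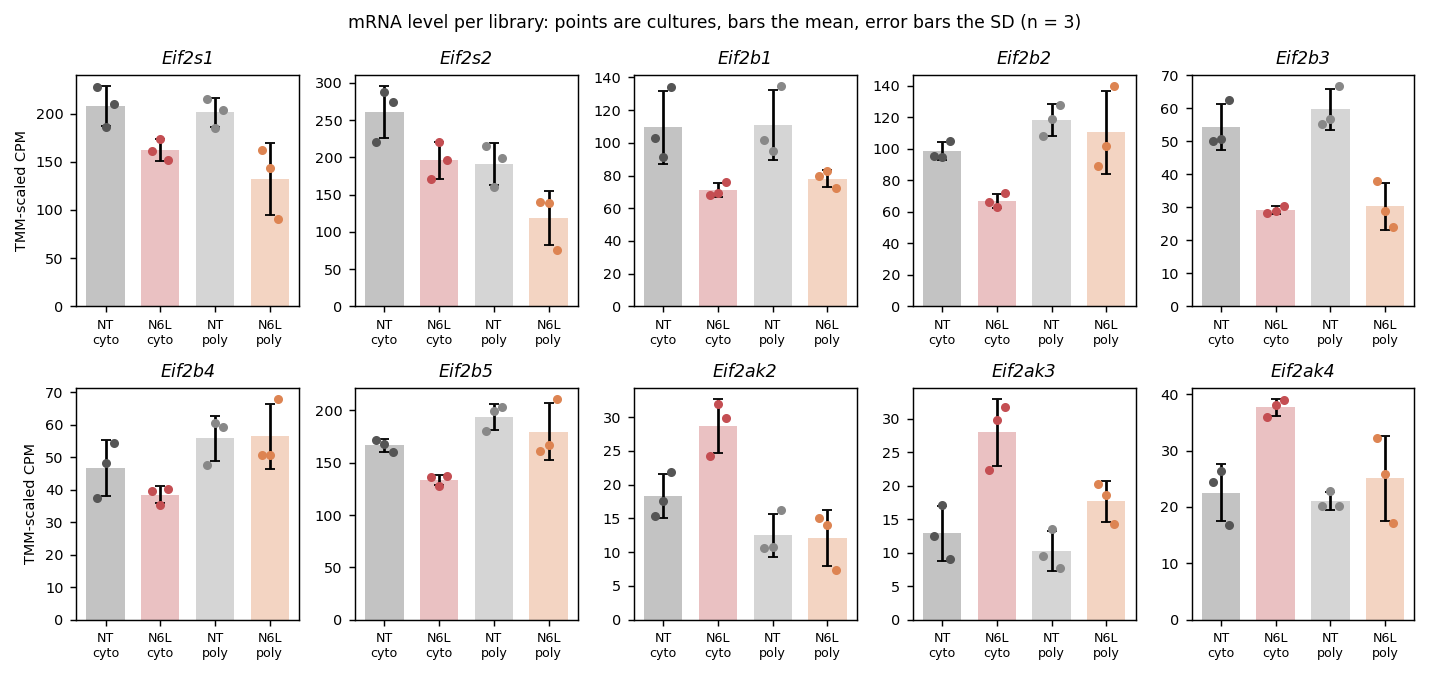
Level of each mRNA in TMM-scaled CPM (vertical axes from 0, 1 panel per gene) in NT and N6L cytoplasm (cyto) and polysomes (poly). Points are cultures, bars the mean and error bars the SD of 3 cultures. All N6L cytoplasmic points lie above the NT ones for the 3 kinases and below them for *Eif2s1*, *Eif2b1*, *Eif2b2*, *Eif2b3* and *Eif2b5*.

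Both eIF2 subunit mRNAs were lower under N6L on average, without passing the test in either fraction. *Eif2s1* (ENSMUSG00000021116, GRCm38 chr12:78861819-78887010, + strand) encodes the alpha subunit, the one that the kinases phosphorylate. It was at 228, 186 and 210 CPM in NT cytoplasm and at 161, 174 and 152 CPM in N6L cytoplasm, and in polysomes at 215, 185 and 204 against 162, 144 and 90.3 CPM. The N6L values lay below the NT values in both fractions, by -0.36 (SE 0.19, FDR 0.159) in the cytoplasm and -0.61 (SE 0.19, FDR 0.0578) in polysomes. *Eif2s2* (ENSMUSG00000074656, chr2:154871410-154892935, - strand) encodes the beta subunit. Its cytoplasmic levels were 221, 288 and 274 CPM without and 171, 221 and 196 CPM with N6L, so that the groups met at 221 CPM. Its polysomal levels were 215, 160 and 199 against 140, 139 and 76.3 CPM and did not overlap. The differences were -0.41 (SE 0.22, FDR 0.162) and -0.69 (SE 0.22, FDR 0.0595). In both genes the lowest polysomal library was that of N6L culture 3. Of the 2 near-identical copies of *Eif2s1* elsewhere in the genome, *Gm12734* held 13 counts. For the other no count value was available, so its reads are not known. The copy of *Eif2s2* held 223 counts, or 0.328% of the counts of *Eif2s2* itself. The share of reads that fit both a gene and its copy was not tested.

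The mRNA of 3 of the 5 eIF2B subunits fell in the cytoplasm under N6L, and that of *Eif2b3* fell in both fractions. *Eif2b3* (ENSMUSG00000028683, chr4:117019402-117087306, + strand) encodes the gamma subunit, which pairs with epsilon in the catalytic part of eIF2B. It was at 50, 50.6 and 62.5 CPM in NT cytoplasm against 28.2, 28.8 and 30.4 CPM under N6L. In polysomes it was at 55.3, 56.8 and 66.9 CPM against 38, 29 and 24 CPM. The groups were far apart in both fractions, at 0.536 and 0.508 of the NT level. The difference was -0.90 (SE 0.18, FDR 0.00391) in the cytoplasm and -0.98 (SE 0.18, FDR 0.00557) in polysomes. Only 2.17% of all genes tested had a lower difference in polysomes. Under every alternative tried the cytoplasmic fall passed the test, and the polysomal one did in all but the fit without N6L culture 2 (-0.95, FDR 0.0595).

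*Eif2b1* (ENSMUSG00000029388, chr5:124570213-124579131, - strand) and *Eif2b2* (ENSMUSG00000004788, chr12:85219481-85226628, + strand) encode the alpha and beta subunits, which belong to the regulatory part that senses phosphorylated eIF2. Cytoplasmic *Eif2b1* was at 103, 91.1 and 134 CPM in NT and at 68, 69.3 and 76 CPM in N6L cultures. It fell by 0.62 on the log2 scale (SE 0.17, FDR 0.0193). Its polysomal levels were 102, 95 and 135 against 79.6, 82.7 and 72.1 CPM, lower in all N6L cultures but short of the limit (-0.50, SE 0.17, FDR 0.0833). Cytoplasmic *Eif2b2* was at 95.1, 95 and 105 CPM against 66.2, 62.8 and 71.7 CPM and fell by 0.56 (SE 0.17, FDR 0.0245). In polysomes its libraries overlapped, with 108, 119 and 128 CPM in NT and 88.9, 102 and 140 CPM in N6L cultures (-0.10, SE 0.17, FDR 0.732). For *Eif2b2* the NT and N6L groups were thus apart in the cytoplasm and mixed in the polysomes.

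*Eif2b4* (ENSMUSG00000029145, chr5:31187558-31193430, - strand) encodes the delta subunit of the regulatory part, and *Eif2b5* (ENSMUSG00000003235, chr16:20498817-20509323, + strand) the catalytic epsilon subunit. *Eif2b4* was at 37.4, 48.4 and 54.4 CPM in NT cytoplasm and at 39.6, 35.4 and 40.3 CPM in N6L cytoplasm, with the groups overlapping (-0.28, SE 0.18, FDR 0.24). In polysomes it was at 47.7, 60.5 and 59.2 against 50.7, 50.8 and 68 CPM (0.02, SE 0.18, FDR 0.967). Its exons share 204 bases with *Snx17* on the other strand, a gene with 64088 counts against 17169 for *Eif2b4*. The libraries were stranded, but no source used here gives the strand setting of the counting, so reads of this stretch may belong to either gene. *Eif2b5* was at 172, 168 and 160 CPM in NT cytoplasm and at 136, 128 and 137 CPM under N6L, apart but short of the limit (-0.32, SE 0.14, FDR 0.0998). In polysomes *Eif2b5* stood at 180, 199 and 203 against 161, 167 and 211 CPM, which overlapped (-0.11, SE 0.14, FDR 0.658).

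The kinase mRNAs were higher in the cytoplasm of all N6L cultures than of any NT culture, and the rise passed the test for PERK and GCN2. *Eif2ak3* (ENSMUSG00000031668, chr6:70844515-70905245, + strand) encodes PERK, the kinase in the endoplasmic reticulum membrane that responds to unfolded proteins. It was at 12.5, 17.2 and 9.01 CPM in NT cytoplasm against 22.3, 29.8 and 31.8 CPM under N6L. It rose 2.17-fold (log2 difference 1.12, SE 0.26, FDR 0.00762), more than any other of the 10 genes. In polysomes it was at 9.44, 13.6 and 7.77 against 20.2, 18.6 and 14.3 CPM, again without overlap, at 0.78 (SE 0.26, FDR 0.0695). *Eif2ak4* (ENSMUSG00000005102, chr2:118388618-118475234, + strand) encodes GCN2, which binds uncharged tRNA and stalled ribosomes. Its cytoplasmic levels were 24.4, 26.4 and 16.8 CPM in NT and 36, 38.1 and 38.9 CPM in N6L cultures, a rise of 0.74 (SE 0.22, FDR 0.0224). In polysomes *Eif2ak4* was at 20.1, 22.9 and 20.2 against 32.2, 25.8 and 17.2 CPM, where N6L culture 3 lay below all NT cultures (0.25, SE 0.22, FDR 0.488).

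*Eif2ak2* (ENSMUSG00000024079, chr17:78852564-78882573, - strand) encodes PKR, the kinase activated by double-stranded RNA, whose gene is known to be induced by interferon. It was at 15.4, 17.6 and 21.9 CPM in NT cytoplasm and at 24.3, 32 and 29.9 CPM in N6L cytoplasm. The groups did not overlap, but the difference was short of the limit (0.65, SE 0.25, FDR 0.0655). In polysomes it was at 10.6, 10.7 and 16.2 against 15, 14 and 7.4 CPM (-0.04, SE 0.26, FDR 0.933). N6L culture 3 was again the lowest of the polysomal libraries.

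In the cytoplasm 5 of the 10 genes passed the test, 3 lower and 2 higher under N6L, beside 28.3% of all 13889 genes (13.8% lower and 14.5% higher). All 7 subunit mRNAs had a difference below 0 and all 3 kinase mRNAs one above 0. The median was -0.41 over the subunits, -0.34 over the 10 genes and 0.04 over all genes tested. The NT and N6L libraries did not overlap for 8 of the 10 genes, 5 lower and 3 higher, beside 54.9% of all genes (25.6% lower and 29.3% higher). In polysomes 1 of 10 passed the test, beside 9.67% of all genes (3.66% lower and 6.01% higher). The polysomal libraries did not overlap for 5 of the 10, 4 lower and 1 higher under N6L, beside 25.6% of all genes (11.9% lower and 13.7% higher). With DESeq2 in place of edgeR, 5 genes passed in polysomes, with *Eif2s1*, *Eif2s2*, *Eif2b1* and *Eif2ak3* added in the directions above. The comparisons in both fractions are on separate libraries, but each pair came from one lysate.

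**Figure D2:**
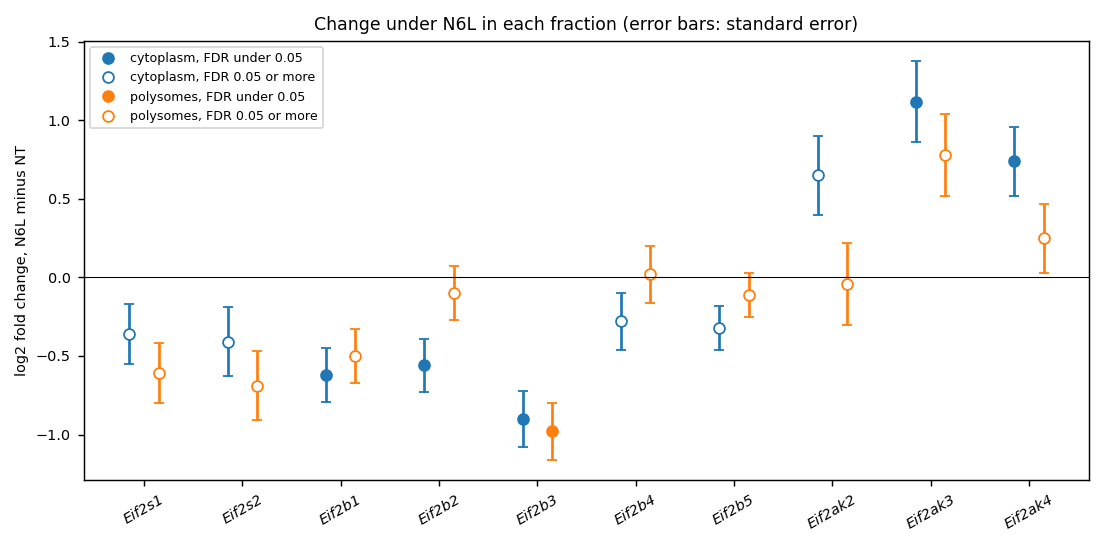
Log2 fold change under N6L of each gene (vertical axis, N6L minus NT) in the cytoplasm and in polysomes, with error bars for the standard error and filled points for an FDR under 0.05. In the cytoplasm the subunits lie from -0.90 to -0.28 and the kinases from 0.65 to 1.12.

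Transcript length moved with these differences. The longest coding transcripts of the kinases run from 4313 to 5298 bases and those of the subunits from 1605 to 3754. Over all genes, the median cytoplasmic difference was 0.43 in the upper quartile of transcript length (4387 bases or more) and -0.48 in the lower quartile (up to 1718 bases). With per-library offsets for transcript length and GC content, *Eif2ak3* kept an FDR under the limit (0.80, SE 0.20, FDR 0.011). *Eif2ak4* no longer passed (0.34, SE 0.13, FDR 0.0744), and *Eif2ak2* was at 0.27 (SE 0.22, FDR 0.36). The subunits stayed below 0, and 6 of the 7 then passed the test in a fit that called 4184 genes in all, from *Eif2b3* (-1.21, SE 0.15, FDR 0.000356) and *Eif2s1* (-0.58, SE 0.12, FDR 0.00433) to *Eif2b2* (-0.31, SE 0.09, FDR 0.0209), with *Eif2b4* the exception (-0.10, SE 0.11, FDR 0.514). The offset of *Eif2b3* takes its longest coding transcript of 3754 bases, while the shortest of its 3 has 1369. The outcome for *Eif2ak2* rested on the fit. With the culture numbers as a replicate block beside the offsets it passed (0.56, SE 0.13, FDR 0.00635). In that fit *Eif2ak3* passed too (0.64, SE 0.15, FDR 0.00827), and *Eif2ak4* did not (0.33, SE 0.14, FDR 0.0943).

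**Figure D3:**
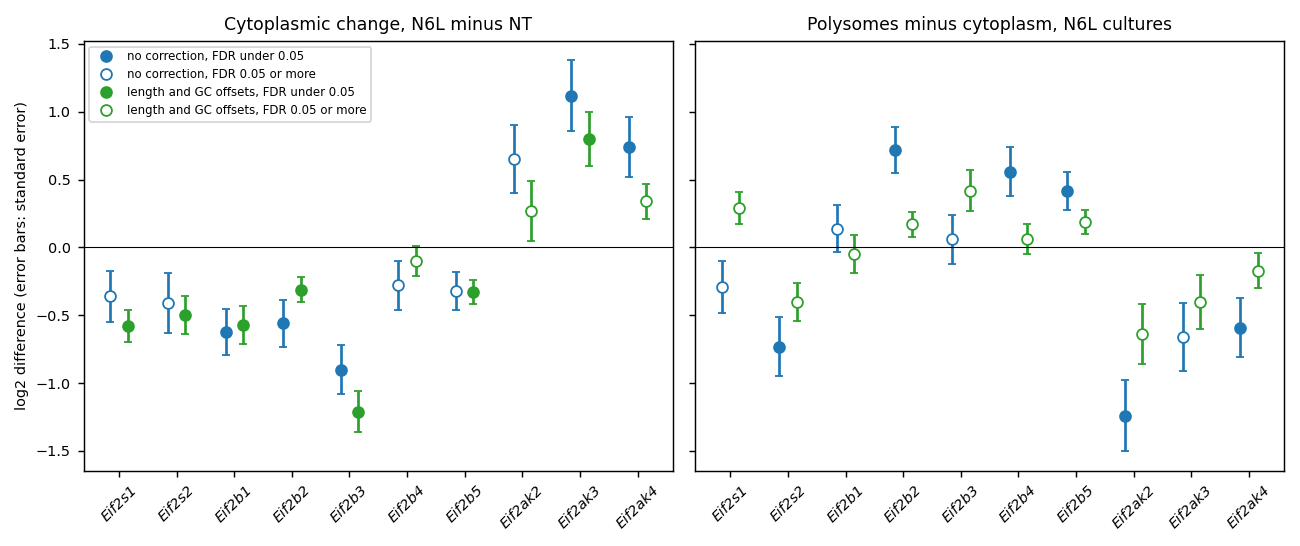
Log2 differences (vertical axis, error bars for the standard error) of each gene without and with offsets for transcript length and GC content, in the cytoplasm as N6L minus NT and in the N6L cultures as polysomes minus cytoplasm. Filled points have an FDR under 0.05. With the offsets, *Eif2ak3* at 0.80 is the only filled kinase in the cytoplasm, and no point is filled in the comparison of polysomes with cytoplasm.

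The cytoplasmic calls rested on single cultures to differing degrees. Without N6L culture 2 only *Eif2b3* passed, *Eif2ak3* being at 1.02 (FDR 0.0571), while the calls over all genes went from 3935 to 1295. Without NT culture 4, *Eif2b3* (-0.82, FDR 0.0163) and *Eif2ak3* (0.89, FDR 0.0281) passed, and without NT culture 1 these and *Eif2b1* (-0.66, FDR 0.0495). *Eif2b2* missed the limit without NT culture 1 (FDR 0.0636), 2 (FDR 0.0569) or 4 (FDR 0.0661), and *Eif2b1* without N6L culture 1 (FDR 0.0593). The value of *Eif2b2* itself stayed between -0.61 and -0.54.

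The polysome-to-cytoplasm ratio of a culture compares both libraries of one lysate. Its main test set group means against each other without pairing by lysate. In NT cultures no gene of the 10 passed the test for this ratio, with 0 at an unadjusted p under 0.05 and 0 with DESeq2, beside 0.209% of all genes. Group medians were -0.25 for the eIF2 subunits, 0.22 for eIF2B and -0.33 for the kinases. The polysomal and cytoplasmic libraries did not overlap for 3 of the 10, *Eif2b2* and *Eif2b5* higher and *Eif2s2* lower in polysomes, beside 22.4% of all genes (9.59% higher and 12.8% lower).

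In N6L cultures 6 of the 10 passed, 3 higher and 3 lower in polysomes than in the cytoplasm, beside 39.0% of all genes (18.4% higher and 20.6% lower). The libraries did not overlap for 7 of the 10, 3 higher and 4 lower in polysomes, beside 56.9% of all genes (28.4% higher and 28.5% lower). The 3 that were higher are eIF2B subunits. *Eif2b2* had log2 ratios of 0.43, 0.70 and 0.96 in N6L cultures 1, 2 and 3 and of 0.18, 0.33 and 0.29 in NT cultures 1, 2 and 4, and its test in N6L cultures gave 0.72 (SE 0.17, FDR 0.007). *Eif2b4* had ratios of 0.36, 0.52 and 0.75 against 0.35, 0.32 and 0.12 (0.56 in N6L cultures, SE 0.18, FDR 0.025). *Eif2b5* had ratios of 0.24, 0.38 and 0.62 against 0.07, 0.24 and 0.34 (0.42, SE 0.14, FDR 0.0284). The other eIF2B mRNAs, *Eif2b1* (0.14, FDR 0.55) and *Eif2b3* (0.06, FDR 0.812), did not pass.

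The 3 that were lower in polysomes were 1 eIF2 subunit and 2 kinases. *Eif2ak2* had log2 ratios of -0.70, -1.19 and -2.0 in the N6L cultures and of -0.54, -0.71 and -0.43 in the NT cultures, and its test in N6L cultures gave -1.24 (SE 0.26, FDR 0.0051). *Eif2s2* had ratios of -0.29, -0.67 and -1.36 against -0.04, -0.85 and -0.46 (-0.73, SE 0.22, FDR 0.0187), and *Eif2ak4* of -0.16, -0.56 and -1.17 against -0.28, -0.21 and 0.26 (-0.59, SE 0.22, FDR 0.0439). In each of these N6L culture 3 held the lowest ratio. *Eif2ak3* was just short of the limit, with ratios of -0.15, -0.68 and -1.15 against -0.40, -0.33 and -0.21 (-0.66, SE 0.25, FDR 0.0507), and passed with the culture as replicate block (-0.66, FDR 0.0122). *Eif2s1*, with ratios of 0.02, -0.27 and -0.75 against -0.09, -0.01 and -0.04, did not pass (-0.29, FDR 0.224).

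**Figure D4:**
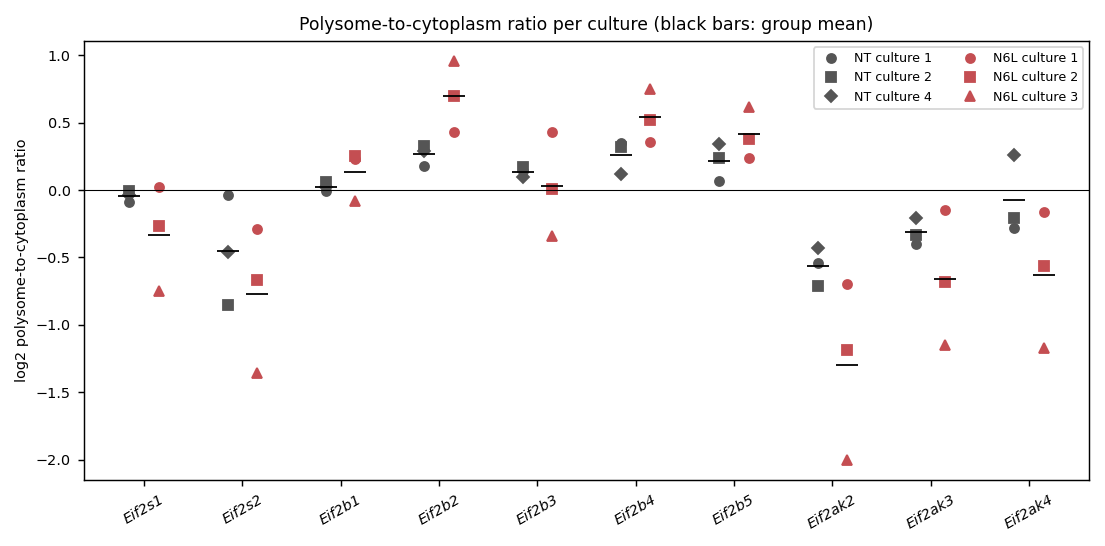
Log2 polysome-to-cytoplasm ratio (vertical axis) of each gene in each NT and N6L culture, with black bars for the mean of 3 cultures. N6L culture 3 has the highest ratio for *Eif2b2*, *Eif2b4* and *Eif2b5* and the lowest for the eIF2 subunits and the kinases.

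N6L culture 3 also stood apart over all genes. The median log2 ratio of the upper quartile of transcript length minus that of the lower quartile was -1.74 in this culture, -0.82 and -1.09 in N6L cultures 1 and 2, and -0.48 to -0.42 in the NT cultures. Without culture 3, *Eif2b2* (0.57, FDR 0.0362) and *Eif2ak2* (-0.96, FDR 0.0284) still passed in the N6L cultures, and without culture 2 only *Eif2ak2* did (-1.26, FDR 0.0483). With offsets for length and GC content none of the 10 passed, the FDR nearest to the limit being 0.061 for *Eif2ak2* (-0.64, SE 0.22). With those offsets and the culture as replicate block 5 passed, *Eif2ak2* (-0.64, FDR 0.00364), *Eif2s2* (-0.41, FDR 0.0352) and *Eif2ak3* (-0.39, FDR 0.0439) lower and *Eif2b3* (0.42, FDR 0.00609) and *Eif2s1* (0.29, FDR 0.0261) higher in polysomes, the last against its direction without offsets. A call in N6L cultures and none in NT cultures does not show that the ratio differed between treatments. That difference is the translational index (TI), tested next.

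None of the 10 genes passed the test of the TI, the log2 ratio in N6L minus that in NT cultures. None of the 13889 genes did so (0.0%) by edgeR or by DESeq2, although 1074 had an unadjusted p under 0.05, of which 0 were among the 10. The TI ran from -0.70 (SE 0.36) for *Eif2ak2* to 0.45 (SE 0.23) for *Eif2b2*, both with an FDR of 0.555. It was below 0 for both eIF2 subunits, at -0.25 for *Eif2s1* and -0.28 for *Eif2s2*, and for all 3 kinases, with -0.49 for *Eif2ak4* and -0.33 for *Eif2ak3*. For eIF2B it was above 0 for *Eif2b4* (0.30), *Eif2b5* (0.21) and *Eif2b1* (0.11), and at -0.08 for *Eif2b3*. The median was -0.16 over the 10 genes and 0.01 over all genes. Ratios of N6L and NT cultures did not overlap for *Eif2b2* and *Eif2b4*, or 2 of 10 beside 29.7% of all genes, and the exact two-sided permutation test of 3 against 3 ratios gave both p = 0.1, the smallest it allows. Standard errors of 0.20 to 0.36 limit what these 12 libraries could show for a single gene.

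Of 24 other genes of the eIF2 pathway, 23 were tested, *Eif2s3y* having 0 counts in all libraries. In the cytoplasm 1 rose and 2 fell, beside 14.5% and 13.8% of all genes, with a median of 0.10 beside 0.04. *Denr*, a factor of reinitiation and recycling, fell by 0.71 (SE 0.19, FDR 0.0168). The other fall and the rise, named after their values were seen, were *Bzw2* (-0.40, SE 0.13, FDR 0.033), whose product mimics eIF5, and *Ppp1cc* (0.35, SE 0.12, FDR 0.0456), a catalytic subunit of protein phosphatase 1. *Eif2s3x*, the remaining eIF2 subunit (gamma), was at 34.3 CPM ± 1.65 in NT and 35.8 CPM ± 2.73 in N6L cytoplasm (SD, n = 3), which overlapped (0.06, SE 0.17, FDR 0.803). In polysomes it was at -0.41 (SE 0.17, FDR 0.147), below 0 as *Eif2s1* and *Eif2s2* were, and none of the 3 passed the test in either fraction. The remaining kinase gene, *Eif2ak1* for HRI, was at 37.8 CPM ± 1.78 against 50.5 CPM ± 2.12, higher in all N6L cultures and just short of the limit (0.42, SE 0.15, FDR 0.0536). *Eif2a*, an unrelated initiation factor of like name, was at 0.24 (SE 0.25, FDR 0.476). The phosphatase cofactors that undo the phosphorylation, *Ppp1r15a* (-0.42, SE 0.25, FDR 0.218) and *Ppp1r15b* (0.18, SE 0.18, FDR 0.471), did not pass.

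Downstream of eIF2, *Atf4* mRNA was at 2240 CPM ± 82.1 in NT and 2260 CPM ± 146 in N6L cytoplasm (0.01, SE 0.16, FDR 0.973). Of 23 genes listed as ATF4 and its targets, 1 rose and 7 fell in the cytoplasm, beside 14.5% and 13.8% of all genes, with a median of -0.36 beside 0.04. *Atf3*, a transcription factor of the stress response, rose by 1.44 (SE 0.29, FDR 0.00465), from 212 to 575 CPM on average. *Mthfd2*, of mitochondrial one-carbon metabolism, fell by 1.00 (SE 0.15, FDR 0.00115), and *Trib3*, a pseudokinase, fell by 0.95 (SE 0.19, FDR 0.00437). In the N6L cultures 8 genes of this list were higher and 3 lower in polysomes than in the cytoplasm, beside 18.4% and 20.6% of all genes. *Atf4* was among the higher (0.63, SE 0.16, FDR 0.00987), and its TI of 0.29 (SE 0.23, FDR 0.592) did not pass. The gradient with transcript length given above was measured over all genes, and its part in these counts was not tested.

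*Eif2ak2* belongs by its known control to the interferon-stimulated genes. Of 23 others listed, 20 were tested and 7 rose in the cytoplasm with 0 lower, beside 14.5% and 13.8% of all genes. The median was 0.75, beside 0.04 over all genes and 0.65 for *Eif2ak2*. These values carry no offsets for length and GC content. With the offsets *Eif2ak2* was at 0.27 (SE 0.22, FDR 0.36). Adding the culture numbers as a replicate block gave it 0.56 (SE 0.13, FDR 0.00635). The part of the gradient with transcript length in the values of this list was not tested. The largest differences were at genes of very low level. *Ifih1*, a sensor of double-stranded RNA, went from 0.198 to 1.13 CPM on average (2.54, SE 0.44, FDR 0.00227), *Ifit1* from 0.134 to 0.473 CPM (1.93, SE 0.65, FDR 0.0386) and *Mx2* from 0.513 to 1.5 CPM (1.57, SE 0.31, FDR 0.00419). *Rsad2*, *Ifi44* and *Zbp1* were not tested, with at most 4 counts in a library.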

How the data were processed

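Counts were those deposited: the authors demultiplexed with bcl2fastq 2.18.0.12, aligned with STAR and counted reads per gene with HTSeq 0.5.3 (submitters' processing notes, build mm10). No source used here gives the annotation or the strand setting. The 48 samples were 4 technical replicates of 12 libraries and were summed. For 3 technical replicates of N6L cytoplasm culture 2 title and description disagree on the culture, and the title was followed. Symbols, positions and transcripts came from GENCODE vM21 (GRCm38), which held 50376 of the 50600 genes, and 0 entries named no gene.

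Counts were filtered with filterByExpr, scaled (TMM) and tested by the quasi-likelihood functions of edgeR 4.0.16 under R 4.3.3, with 1 mean per group and no block. The common biological coefficient of variation was 0.197. The procedure was tested on simulated counts. Log2 ratios per culture used a prior count of 2. Copies were sought with blastn 2.17.0 (95% identity over 200 bases). DESeq2 1.42.0 and the other alternatives are given at the end. Both fractions of a culture come from one lysate, and their deviations from the group means correlated at 0.364, 0.452 and 0.645 in NT and 0.0368, 0.199 and 0.229 in N6L cultures. The 10 genes were all named, with up to 3 genes of each other list by size of change in the cytoplasm and in the TI, and 7 genes always. Pathway genes named outside this rule, for passing in the cytoplasm or in the ratio of N6L cultures, were named after their values were seen. Genes and lists were chosen with earlier results of these data known.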

Additional observations from a re-analysis of the deposited data

How the results depend on the processing

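Of 840 values of single genes under alternatives, 716 kept direction and side of the limit, 47 came to pass the test, 43 no longer did and 34 changed sign. Counts of the 10 genes called in the cytoplasm (5) came to 9 with only both cytoplasmic groups in the fit and to 1 to 6 with a culture left out. In polysomes (1) they came to 4 with no filter, 5 with DESeq2, 5 with length and GC offsets and 0 to 3 with a culture left out. For polysomes against cytoplasm in NT cultures (0) they came to 0 with any culture left out, and in N6L cultures (6) to 0 with the offsets and 1 to 7 with a culture left out. The TI gave 0 under all alternatives. Calls over all genes in the cytoplasm (3935) came to 5666 with 2 groups in the fit and 1295 to 4042 with a culture left out. In polysomes (1343) they came to 328 with 2 groups in the fit, 2034 with DESeq2, 2961 with the offsets, 3020 with block and offsets and 146 to 1579 with a culture left out. For the NT ratio (29) they came to 647 with no filter, 281 with DESeq2, 203 with the block, 576 with block and offsets, 139 with 2 groups, 47 with the offsets, 18 with technical replicate a and 0 to 335 with a culture left out. For the N6L ratio (5415) they came to 7460 with the block, 2323 with the offsets and 1153 to 5861 with a culture left out. For the TI (0) they came to 114 with no filter, 1 with block and offsets and 1 without N6L culture 1. Scaling by library totals moved the median cytoplasmic difference of all genes from 0.04 to 0.19 and the higher share of calls from 51.2% to 65.5%. It changed no direction of the 10 genes in the cytoplasm.

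No label says whether a culture number shared by both treatments marks a shared batch. Across treatments the deviations of number 1 correlated at 0.228 in the cytoplasm and 0.296 in polysomes. Those of number 2 correlated at 0.0455 and 0.00756. With the numbers as a replicate block 7 genes passed in the cytoplasm and 1 in polysomes, where *Eif2ak2* turned to 0.25. For the ratios the replicate block is the lysate, and it changed only the call of *Eif2ak3*. The replicate block with the offsets called 7 in the cytoplasm and 6 in polysomes. It called 1 in the ratio of NT cultures, *Eif2s1* at 0.35 (FDR 0.0485), and 5 in that of N6L cultures.

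The sign changed as follows. In polysomes *Eif2b4* was at -0.001 with RLE scaling and with DESeq2, -0.002 with technical replicate a alone, -0.13 with the offsets and -0.09 with block and offsets, and ran from -0.14 to 0.09 with a culture left out. *Eif2ak2* was at 0.07 with library totals and 0.20 with block and offsets, and ran from -0.22 to 0.21. *Eif2b2* ran from -0.31 to 0.03. In the NT ratio, *Eif2s1* was at 0.34 with the offsets, *Eif2b1* at -0.06 with library totals, -0.09 with the offsets and from -0.003 to 0.04 with a culture left out, *Eif2ak3* at 0.03 with technical replicate a, and *Eif2ak4* at 0.03 with the offsets and 0.04 with block and offsets. In the N6L ratio, *Eif2s1* was at 0.29 with the offsets, *Eif2b1* at -0.05 and, with the block, -0.06, and *Eif2b3* at -0.07 with library totals and from -0.16 to 0.23 with a culture left out. The TI of *Eif2b3* was 0.16 with the offsets, 0.15 with the block added and -0.30 to 0.10 with a culture left out, and that of *Eif2b4* -0.02 and -0.03. The cause was not tested.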

Other observations

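Of the 23 other pathway genes tested, 10 had a TI above 0 and 13 below, with a median of -0.14. The largest by size were below 0. *Gcn1*, the ribosome-bound activator of GCN2, was at -0.86 (SE 0.36, FDR 0.555), *Bzw1*, a mimic of eIF5, at -0.48 (SE 0.33, FDR 0.567) and *Impact*, an inhibitor of GCN2 activation, at -0.48 (SE 0.40, FDR 0.603), none past the limit. In the N6L cultures 4 of the 23 tested pathway genes were higher and 5 lower in polysomes than in the cytoplasm, beside 18.4% and 20.6% of all genes. The 4 higher were *Tarbp2* (0.86, SE 0.22, FDR 0.00919), *Ppp1ca* (0.84, SE 0.21, FDR 0.00925), *Eif2d* (0.63, SE 0.16, FDR 0.0092) and *Prkra* (0.46, SE 0.14, FDR 0.0184). The 5 lower were *Eif2a* (-0.89, SE 0.25, FDR 0.015), *Eif5* (-0.89, SE 0.24, FDR 0.0128), *Impact* (-0.87, SE 0.29, FDR 0.0286), *Dnajc3* (-0.84, SE 0.27, FDR 0.0266) and *Gcn1* (-0.78, SE 0.25, FDR 0.0264). The part of the gradient with transcript length in these counts was not tested. Cytoplasmic *Nck1*, an adaptor that binds eIF2 and phosphatase 1, was at 0.61 (SE 0.23, FDR 0.0578), and *Ppp1ca*, a catalytic subunit of phosphatase 1, at -0.45 (SE 0.21, FDR 0.116).

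Among the ATF4 list, TI values were largest for *Cebpb* (0.92, SE 0.34), *Aldh1l2* (-0.67, SE 0.47) and *Chac1* (0.44, SE 0.36). Among the interferon-stimulated genes they were largest for *Ifih1* (-1.61, SE 0.66), *Oas1a* (1.03, SE 0.52) and *Irf7* (0.92, SE 0.39). All 6 had an FDR of 0.555 to 0.593.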
